A study of Mus musculus with 12 samples.

Results

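Neat1 and Malat1 are neighbouring genes on mouse chromosome 19 whose products are long non-coding RNAs that stay in the nucleus. They are described here through 4 gene symbols of a liver nascent RNA table that held 21490 symbols at 15830 loci, where overlapping symbols count as 1 locus. The symbols were selected by position, as those lying wholly within a window of 60 kb that covers both genes, and all 12 libraries were used. The window itself was chosen on measured values, since it was proposed with the signal of these 12 libraries known. The levels and time courses of the 4 symbols are therefore given as a description with no test. AK148054, AK215842 and AK197973 overlap each other within Neat1 and form 1 locus, and AK019083 lies in Malat1 and forms the other. All 4 exceeded 6 reads per base pair (rpbp) in at least 1 library and so belonged to the 6284 symbols at 4723 loci that were tested across the table.

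The libraries were made from livers of adult male C57BL/6 mice aged 3 to 6 months. The mice were held under 12 hr of light and 12 hr of darkness for 2 weeks or longer. Livers were taken at zeitgeber times ZT0, ZT4, ZT8, ZT12, ZT16 and ZT20. Lights come on at ZT0. Each time point had 2 replicates, and the labels name no genetic change or drug. The study describes the 12 samples as independent. The labels do not say whether a replicate was 1 animal or a pool, and differences between replicates may be partly technical. Nascent-Seq takes the RNA that stays with the chromatin pellet of purified nuclei, removes polyadenylated RNA and sequences the rest. For RNAs that remain in the nucleus after synthesis, newly made and finished molecules bound to chromatin cannot be told apart in this preparation.

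Neat1 is the scaffold of paraspeckles, nuclear bodies that hold RNA-binding proteins and some edited or retained RNAs. Malat1 collects at nuclear speckles, where splicing factors are stored. Both RNAs are transcribed by RNA polymerase II and are largely unspliced. A tRNA-like structure near the end of each is cut by RNase P, which leaves a 3′ end without a poly(A) tail that is stabilised by a triple helix. Neat1 also has a short polyadenylated form that shares the 5′ start of the long one.

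Both genes are annotated on the minus strand (NCBIM37, the assembly known as mm9, GENCODE M1). AK148054 covers chr19:5842307-5845476, a span of 3170 bp that starts 2 bases after the annotated start of Neat1 and has the ends of the transcript Neat1-002. This is 15.3% of the Neat1 gene, which runs over 20771 bp, so the far part of the long form is not measured by any of the symbols. AK215842 covers chr19:5843983-5845008 (1026 bp) and AK197973 covers chr19:5844339-5844633 (295 bp), both inside AK148054. Reads in the shared bases count for each symbol that holds them, and the 3 Neat1 symbols are not independent measurements. AK019083 covers chr19:5798395-5802671, the first 4277 bp (61.3%) of the 6982-bp Malat1 gene. The signal ignores strand, and the antisense gene Gm20417 overlaps 155 bp (3.62%) of AK019083, within which reads of the 2 strands cannot be separated.

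**Figure D1:**
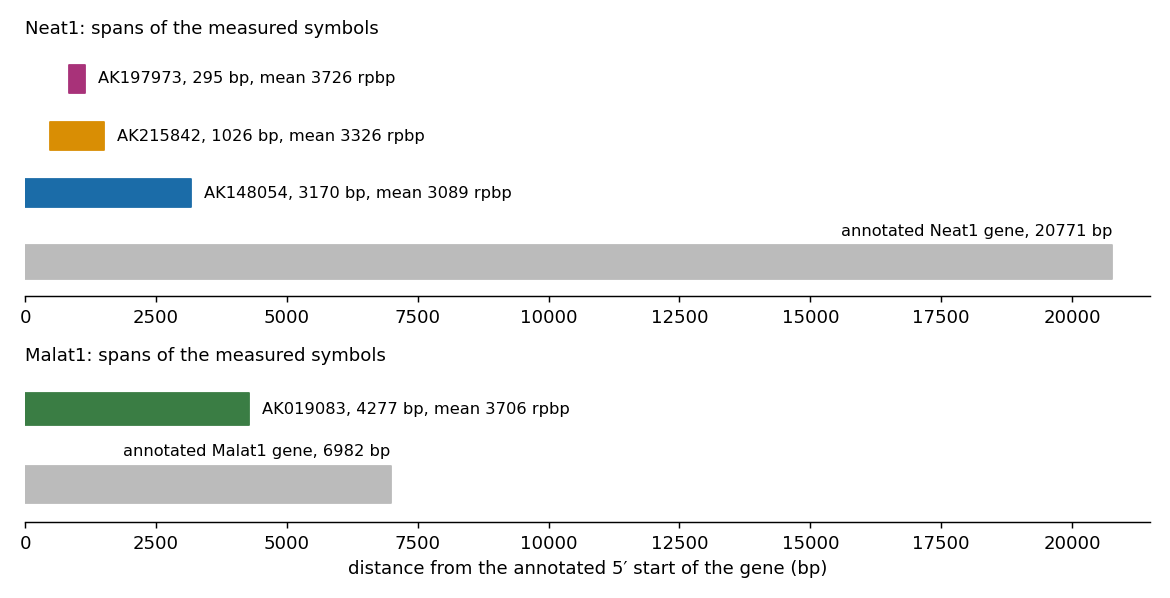
Spans of the 4 symbols (coloured bars) along the annotated Neat1 and Malat1 genes (grey bars), with distance from the 5′ start of the gene in bp on the horizontal axis, to scale, and the mean signal over 12 libraries printed beside each bar. The 3 Neat1 symbols lie within the first 3172 bp of a gene of 20771 bp, whereas AK019083 takes up 61.3% of Malat1.

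The sequence of AK197973 is shown because it gave the highest Neat1 signal in 11 of 12 libraries and matches a spliced form. It has the ends of Neat1-004, with exons of 56 and 96 bases around an intron of 143 bases that begins with GT and ends with AG. The sequence from NCBIM37 is printed 5′ to 3′ on the minus strand, with the 152 exon bases in capitals and the intron in lower case.
AK197973: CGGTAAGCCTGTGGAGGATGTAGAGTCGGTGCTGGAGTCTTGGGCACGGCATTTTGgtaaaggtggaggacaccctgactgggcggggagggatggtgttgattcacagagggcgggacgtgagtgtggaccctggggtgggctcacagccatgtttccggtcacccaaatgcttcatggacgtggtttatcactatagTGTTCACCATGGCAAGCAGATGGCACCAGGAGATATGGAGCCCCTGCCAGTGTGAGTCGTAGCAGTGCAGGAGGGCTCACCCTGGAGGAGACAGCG

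The promoter of Malat1 is shown because its gene kept a signal near the top of the table at every time point. It comes from RefSeq (GRCm38.p6, chr19:5802623-5802922, minus strand) and holds 250 bases before and 50 after the start. The table of promoters matched Malat1 and not Neat1. Capitals mark the core of the cAMP response element, TGACGT or its reverse complement ACGTCA, which was searched together with the E-box CACGTG, the letters bound by the clock factors CLK and BMAL1, on both strands.
Malat1 promoter: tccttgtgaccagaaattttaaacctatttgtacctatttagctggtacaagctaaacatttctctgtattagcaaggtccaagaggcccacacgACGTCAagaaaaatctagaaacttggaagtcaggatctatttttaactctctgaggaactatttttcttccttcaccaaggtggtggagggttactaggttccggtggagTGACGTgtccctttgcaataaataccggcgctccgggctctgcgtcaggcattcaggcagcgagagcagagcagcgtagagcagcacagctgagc
The core was found at 2 places, beginning 155 and 45 bases before the start site. It is present in 7.51% of 32851 promoters of this length. CACGTG is not in this window and is in 7.15% of the promoters. Such matches describe letters and not binding.

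Neat1 was highest at ZT16, early in the dark phase, and lowest at ZT8, late in the light phase. For AK148054 the signal in replicates 1 and 2 was 2024 and 2488 rpbp at ZT0, 2736 and 3001 rpbp at ZT4, 1508 and 1132 rpbp at ZT8, 1947 and 4981 rpbp at ZT12, 5793 and 5888 rpbp at ZT16, and 2516 and 3056 rpbp at ZT20. Both ZT16 libraries were above all the others and both ZT8 libraries were below all the others. The mean was 5840.5 ± 67.7 rpbp at ZT16 and 1320 ± 266 rpbp at ZT8 (SD, n = 2), a ratio of 4.43, and the lower ZT16 value was still 3.84 times the higher ZT8 value. In order of their means, ZT16 was followed by ZT12, ZT4, ZT20, ZT0 and ZT8. The replicates of ZT12 (2.56-fold apart, mean 3464 ± 2145 rpbp) spanned those of ZT4, and those of ZT20 spanned ZT4 as well. ZT16 against ZT12, ZT20 against ZT0, and ZT0 against ZT8 had replicates that did not overlap. The replicates of the other 5 time points were at most 1.33-fold apart.

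The shorter Neat1 symbols, which share their reads with AK148054, had the same highest and lowest libraries. AK215842 gave 2290.0 and 2847 rpbp at ZT0, 3046 and 3267 rpbp at ZT4, 1607 and 1121 rpbp at ZT8, 2143 and 5151 rpbp at ZT12, 6294 and 6331 rpbp at ZT16, and 2579 and 3236 rpbp at ZT20. AK197973 gave 2604 and 3168 rpbp at ZT0, 3503 and 3689 rpbp at ZT4, 1717 and 1047 rpbp at ZT8, 2522 and 5796 rpbp at ZT12, 7072 and 7292 rpbp at ZT16, and 2946 and 3361 rpbp at ZT20. The ratio of the ZT16 mean to the ZT8 mean was 4.63 for AK215842 and 5.20 for AK197973. The signal of AK197973 was 0.925 to 1.29 times that of AK148054 (median 1.23), and the ratio fell below 1 in replicate 2 of ZT8 alone. For AK215842 over AK148054 the ratio ran from 0.991 to 1.14 (median 1.08), again under 1 in that library alone. Replicate 2 of ZT8 was also the library in which symbols of high GC content were lowest relative to those of low GC content, and the GC content of the spans is 58.3% for AK197973, 56.4% for AK215842 and 51.3% for AK148054. The part of GC content in these ratios was not tested.

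**Figure D2:**
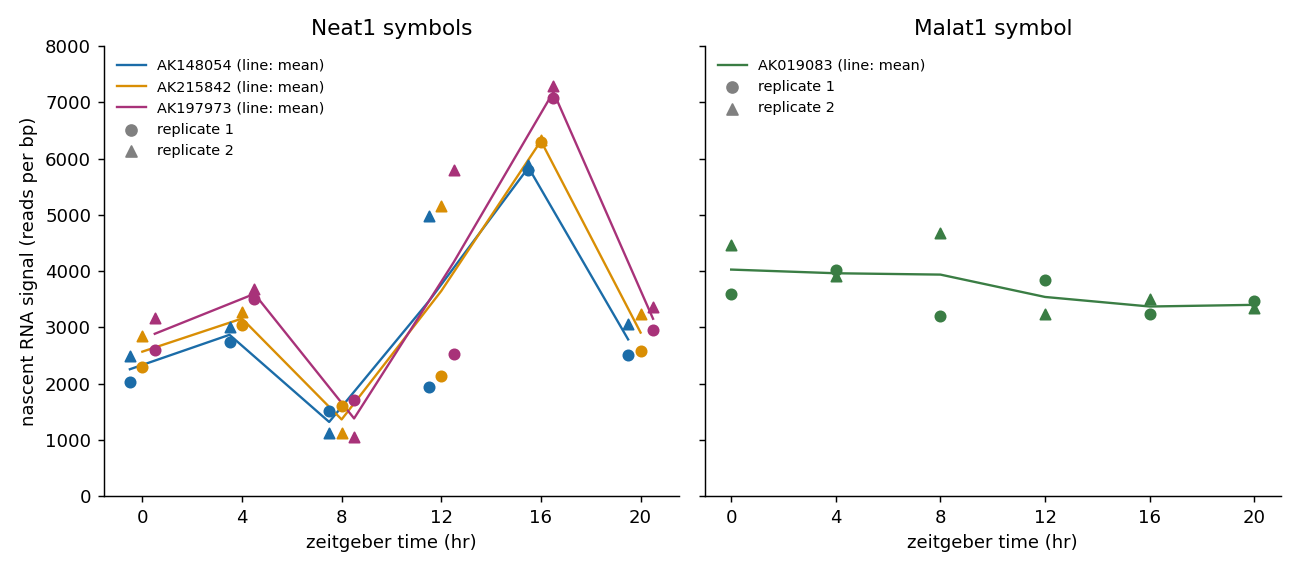
Nascent RNA signal in reads per bp against zeitgeber time for the 3 Neat1 symbols (left) and the Malat1 symbol (right), with circles for replicate 1, triangles for replicate 2 and lines through the means of 2 replicates (symbols at left are shifted sideways for clarity). The Neat1 points at ZT16 lie above all others of the same symbol, the ZT12 replicates are far apart, and the Malat1 points stay between 3204 and 4672 rpbp.

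The ZT16 signal of Neat1 also stood apart from the rest of its own time course. The mean of the 10 libraries outside ZT16 was 2539 ± 1062 rpbp (SD, n = 10) for AK148054, and the ZT16 mean was 2.30 times that. A ratio at least as high was found in 79 of the 6284 tested symbols (1.26%), whose median was 0.869. Both ZT16 libraries were above every other library in 68 of the tested symbols (1.08%), and the 3 Neat1 symbols were among them. This pattern was picked after the Neat1 values had been seen. Both libraries of ZT12 stood above the rest in 482 symbols (7.67%), and those of the other time points in 92 (ZT0, 1.46%) to 288 symbols (ZT8, 4.58%). No cause of the ZT16 levels was tested, and in whole liver a higher level per cell and a larger share of cells that make the RNA cannot be told apart.

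The fit of a daily wave to Neat1 came close to the limit used for calling rhythms. F24, the share of the variance over 12 values that a 24-hr cosine carries, was 0.438 for AK148054, 0.415 for AK215842 and 0.405 for AK197973, with the fitted maximum at 16.2, 16.3 and 16.3 hr. Of all tested symbols, 1256 (19.99%) had a higher F24 than AK148054. The variance between time points in any form, of which the cosine is a part, was 82.5% of its total, against a median of 63.3% over the tested symbols, whose median F24 was 0.222. A symbol was called rhythmic at F24 above 0.45, an unadjusted permutation p under 0.05 and a highest value more than 1.5 times the lowest. None of the 4 members was called, 955 of the 6284 tested symbols (15.2%) were, and nothing is read from this count because the window was chosen with the values known. The highest value of AK148054 was 5.20 times the lowest, well past the limit of 1.5, and its F24 was just under 0.45. F24 was not the only limit that mattered. With the GC trend removed F24 was 0.475 and the ratio 5.02, both past their limits, and the call failed on the permutation p. In the series of replicate 1, F24 was 0.368 with the maximum close to ZT17, and in that of replicate 2 it was 0.585 with the maximum at 15.6 hr. Without replicate 1 of ZT12 it was 0.569 and AK148054 was called, and without both ZT16 libraries it was 0.115.

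Differences of any form between time points were also fitted over the whole table, on log2(rpbp + 1), by limma's moderated F-test. At a Benjamini-Hochberg adjusted p under 0.05, the 3 Neat1 symbols, which are 1 locus, were among 481 called symbols of 6284 (7.65%), and AK019083 was not. An F larger than theirs was found in 4.23% of the tested symbols for AK197973, 6.06% for AK215842 and 7.46% for AK148054, and in 92.9% for AK019083. These calls are again a description of values used to choose the window. They depended on the settings, since AK197973 alone was called with log2(rpbp + 0.1) and no member was called when all 20756 varying symbols were tested, although the 3 Neat1 symbols had an unadjusted p under 0.05 in both fits. No Neat1 symbol was called by limma without 1 of 8 of the 12 libraries, namely either of ZT0, ZT16 or ZT20, replicate 2 of ZT4 or replicate 2 of ZT8, although all 3 were under an unadjusted p of 0.05 each time. AK197973 alone was called without replicate 1 of ZT4 or of ZT8, and all 3 were called without either library of ZT12. With 1 library left out its time point has a lone sample, which the fit takes to vary like the others.

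Libraries of ZT8 and ZT20 were sequenced in 2 lanes and the other 8 in 1, so lane number and time point are confounded for the ZT16 to ZT8 ratio. Within the 8 libraries of 1 lane, the ZT16 mean of AK148054 was 2.04 times the mean of the other 6 (2863 ± 1114 rpbp). Within the 4 libraries of 2 lanes, ZT20 was 2.11 times ZT8 for AK148054, with a smallest ratio of 1.67 between single libraries. With values centred within lane number, F24 was 0.568 for AK148054, which was not called.

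**Figure D3:**
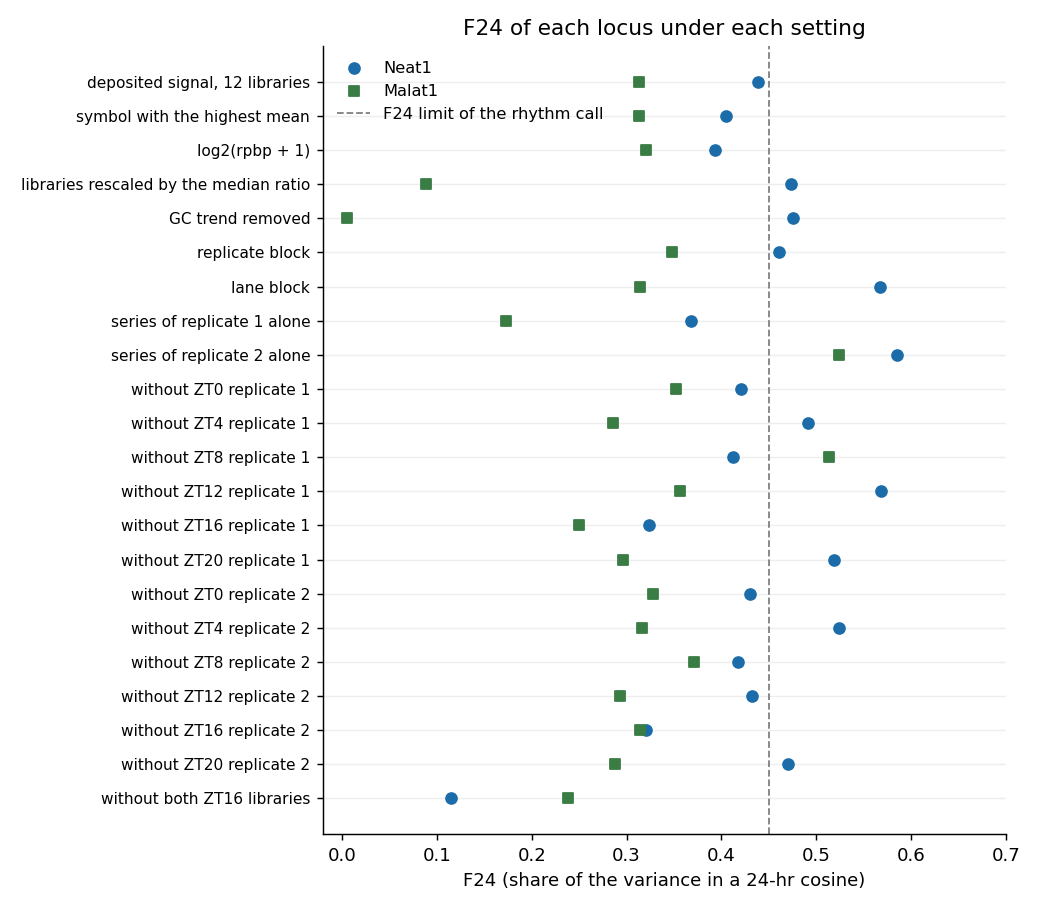
F24 (horizontal axis, share of variance in a 24-hr cosine, no unit) of AK148054 for Neat1 (circles) and AK019083 for Malat1 (squares) as deposited and under other settings, 1 row each; the row for the symbol with the highest mean uses AK197973 for Neat1. The dashed line is the limit of 0.45. Neat1 lies between 0.115 without both ZT16 libraries and 0.585 in the series of replicate 2 alone, and Malat1 between 0.00526 and 0.524.

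Malat1 varied little. AK019083 gave 3592 and 4462 rpbp at ZT0, 4018 and 3905 rpbp at ZT4, 3204 and 4672 rpbp at ZT8, 3839 and 3242 rpbp at ZT12, 3243 and 3499 rpbp at ZT16, and 3460.1 and 3341 rpbp at ZT20. The highest and the lowest library were both of ZT8, and the replicates of that time point were 1.46-fold apart. In order of their means ZT0, ZT4, ZT8, ZT12, ZT20 and ZT16 followed each other from 4027 ± 615 to 3371 ± 181 rpbp (SD, n = 2), and the replicates of neighbours in this order overlapped throughout. Over 12 libraries the mean was 3706 ± 485 rpbp, with a coefficient of variation of 0.131. Only 5.79% of the tested symbols had a lower one, and the median over them was 0.252. The study found that variation between lanes of the same library fell as signal rose. Other symbols of very high mean signal had coefficients from 0.176 (Rmrp) to 1.66. The part of signal level in this rank was not tested. For AK148054 the coefficient was 0.519, above that of 89.6% of the tested symbols. F24 of AK019083 was 0.313 with the fitted maximum at 4.15 hr, and its highest value was 1.46 times the lowest, under the limit of 1.5.

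The small differences in Malat1 depended on how libraries were scaled. As deposited, its ZT16 mean was 0.856 times the ZT8 mean. After libraries were rescaled by the median ratio of the tested symbols the ratio was 0.944, and after the trend with GC content was removed from each library it was 1.19, with F24 at 0.00526. The highest library was replicate 2 of ZT8 as deposited and replicate 1 of ZT12 after the GC trend was removed. AK019083 has a GC content of 41.8%, and in replicate 2 of ZT8 it was 0.34 above its own mean on the log2 scale, where symbols of similar GC content were 0.40 above theirs at the median. For AK148054 the ZT16 to ZT8 ratio was 4.43 as deposited, 4.90 rescaled and 4.33 with the GC trend removed, with replicate 2 of ZT16 highest and replicate 2 of ZT8 lowest in each. Its F24 was 0.473 rescaled, at which it was called, and 0.475 with the GC trend removed, at which it was not.

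Set against Malat1 in the same library, Neat1 was the larger of the 2 at ZT16 and the smaller in most others. The signal of AK148054 divided by that of AK019083 was 1.79 and 1.68 at ZT16, 0.507 and 1.54 at ZT12, and 0.471 and 0.242 at ZT8. At ZT0, ZT4 and ZT20 it lay between 0.558 and 0.915. Thus the ratio was above 1 in 3 of 12 libraries, both of ZT16 and replicate 2 of ZT12. The mean was 1.73 ± 0.0730 at ZT16 and 0.356 ± 0.162 at ZT8 (SD, n = 2), and over all libraries the ratio ranged 7.38-fold. Without replicate 2 of ZT8 the range was 3.79-fold. A scaling factor common to a library cancels in this ratio but an effect of GC content does not. With the GC trend removed the ratio was 1.45 and 1.59 at ZT16 and at most 1.36 elsewhere, it ranged 4.31-fold, and it was above 1 in 4 libraries. As deposited, the F24 of the ratio was 0.501 with the fitted maximum close to ZT16. Over the 12 libraries, which share the table's scaling, Pearson's r between the log2 signals of the 2 symbols was -0.51.

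**Figure D4:**
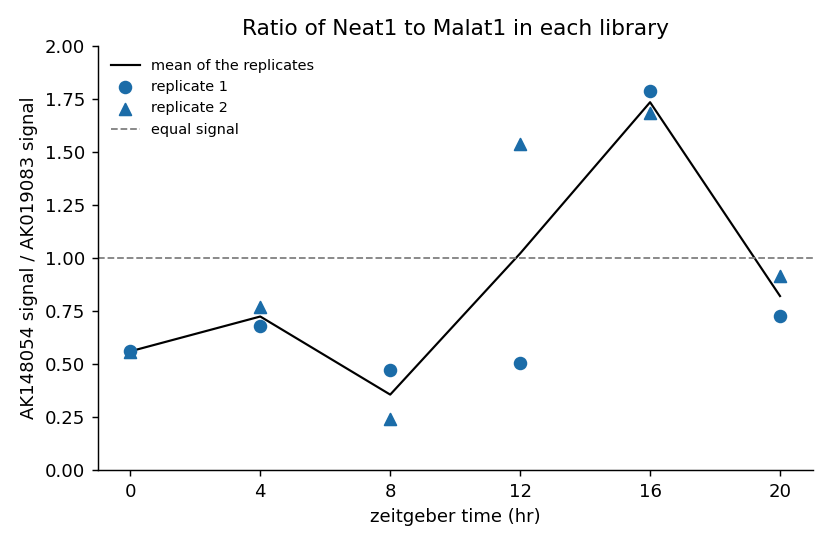
Signal of AK148054 (Neat1) divided by that of AK019083 (Malat1) in each library against zeitgeber time in hours, with circles for replicate 1, triangles for replicate 2, a line through the means and a dashed line at equal signal. The ratios of 1.79 and 1.68 at ZT16 and 1.54 in replicate 2 of ZT12 are above 1, and the other 9 are below.

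Per base pair, both loci were among the most abundant of the table. By mean signal AK197973 ranked 2nd and AK019083 3rd of all symbols, after Rmrp (7300 rpbp, listed as NR_001460), the RNA of the RNase MRP complex. The mean was 3726 rpbp for AK197973, 3326 rpbp for AK215842 and 3089 rpbp for AK148054. In single libraries 1 to 6 other loci were above AK148054 and 1 to 4 above AK019083. Alb, the main plasma protein gene of hepatocytes, had a mean of 527 rpbp. Of the summed rpbp of all symbols, AK148054 took 0.915% (replicate 2 of ZT8) to 4.79% (replicate 2 of ZT16), and AK019083 took 2.16% to 3.78%. Such a share adds signals per base and is not a share of reads.

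No neighbouring symbol came near these levels. Within 150 kb of the window lay 19 further symbols at 13 loci, with no value above 9.1 rpbp in any library. The lowest value of AK148054 was 124 times that, and the lowest of AK019083 was 352 times. On the Neat1 side the nearest tested symbol was 1200004M23Rik, which overlaps Frmd8, at 5497 bases with 5.04 ± 1.19 rpbp (SD, n = 12). It had 6.30 rpbp in both ZT16 libraries and 3.70 ± 1.98 rpbp at ZT8 (SD, n = 2), with F24 at 0.284 and the fitted maximum at 16.1 hr. Of the 19 symbols 6 were tested, and 0 were called rhythmic, where 15.2% of all tested symbols were.

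Symbols similar to Neat1 in time course were sought only outside its own region, so nearby symbols were left out by rule. Among 6247 tested symbols more than 1 Mb away, the highest Pearson correlations of log2(rpbp + 1) with AK148054 over 12 libraries were for C8a (0.907), Lbp (0.888), Skiv2l (0.880), Stat2 (0.876) and Heatr6 (0.876). They were selected for this value, and all share the scaling and GC content effects of the libraries. C8a, a chain of the complement membrane attack complex, had 134 ± 5.44 rpbp at ZT16 and 55.7 ± 10.1 rpbp at ZT8. Lbp, the lipopolysaccharide-binding plasma protein, had 14.7 ± 2.05 rpbp at ZT16 and 2.70 ± 0.141 rpbp at ZT8 and was the single one of the 5 called rhythmic (F24 0.645, maximum at 16.2 hr). Skiv2l, an RNA helicase that acts with the exosome, had 20.3 ± 0.990 rpbp at ZT16 and 8.90 ± 0.566 rpbp at ZT8. Stat2, a signal transducer of type I interferon, was highest in replicate 2 of ZT12 (32.7 rpbp), the library in which Neat1 was also far above its replicate. Heatr6 ranged from 3.80 to 6.90 rpbp. With the GC trend removed the correlations of these 5 were 0.842 to 0.912.

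For AK019083 the same rule gave Zfp167 (0.860), Tnks (0.854), Pik3c3 (0.826), Tbl1x (0.824) and Crkrs (0.814). Zfp167 encodes a zinc finger protein, Tnks the poly-ADP-ribosylating enzyme tankyrase, Pik3c3 the lipid kinase of autophagy and Tbl1x a subunit of nuclear receptor corepressor complexes. These 4 were highest in replicate 2 of ZT8, as AK019083 was. With the GC trend removed their correlations were 0.269, 0.183, 0.635 and 0.474. That of Crkrs, which encodes a kinase acting on RNA polymerase II, was 0.769.

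Genes for the proteins of paraspeckles were given beside Neat1, since the bodies need both. In a list of 39 paraspeckle proteins 22 were tested and 2 were called rhythmic, beside 15.2% of all tested symbols, with a median F24 of 0.208 against 0.222 over all tested symbols. These were Caprin1, an RNA granule protein, with the fitted maximum at 22.7 hr (13.9 to 48.1 rpbp, F24 0.595), and Rbm3, a cold-induced RNA-binding protein, with the maximum at 18.5 hr (4.70 to 9.40 rpbp, F24 0.508). Sfpq, one of the core proteins on which paraspeckles depend, had 34.3 rpbp at the mean with F24 at 0.0749, and Pspc1 had 11.5 rpbp with F24 at 0.0309. Nono, also on the list, did not pass 6 rpbp in any library (mean 3.43 rpbp). In no listed paraspeckle gene were both ZT16 libraries above all the others, a pattern that 1.08% of all tested symbols had. The summed signal of the list was 293 and 317 rpbp at ZT16 and 309 to 403 rpbp elsewhere. Lower ZT16 values were common to the table. The median ratio of the ZT16 mean to the mean of the other libraries was 0.862 for the tested genes of the list and 0.869 over all tested symbols.

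Among 25 nuclear speckle proteins 22 were tested and 1 was called, again beside 15.2% of all tested symbols, with a median F24 of 0.131. This was Son, a large scaffold protein of speckles, with 32.9 to 55.9 rpbp, F24 at 0.550 and the maximum at 6.83 hr. Srrm2, the other speckle scaffold, had 75.8 rpbp at the mean and F24 at 0.154. Of 17 genes for 3′ end maturation and nuclear turnover of the 2 RNAs 5 were tested and 1 was called, against 15.2% of all tested symbols, with a median F24 of 0.219. It was Exosc10, the nuclear exosome nuclease, with 3.70 to 6.50 rpbp and the maximum at 2.42 hr. Pop5, a subunit of RNase P, had F24 at 0.767 and was not called because its highest value was not above the limit of 1.5 times its lowest. All 13 clock genes listed for reference were called, with a median F24 of 0.772, among them Nr1d1 (0.884), Per3 (0.868), Tef (0.859) and Arntl (0.829).

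The other listed long non-coding RNAs that were found lay far below Neat1 and Malat1 in mean signal per base, and 21 were not found. Of 32 listed, 3 were in the table under the names searched, and 8 more were found through their RefSeq accessions, a search added after the data had been seen. Under either kind of name 8 symbols were tested and 1 was called rhythmic, where 15.2% of all tested symbols were, and in none were both ZT16 libraries above all the others. The called one was Airn (NR_002853), the antisense transcript of the imprinted Igf2r gene, from whose reads it cannot be separated without strand, with 2.70 to 15.2 rpbp, F24 at 0.569 and the fitted maximum at 3.11 hr. Snhg1 (NR_002896), a host of small nucleolar RNAs, was the highest, with a mean of 360 rpbp and a range from 87.8 to 1495 rpbp. Its highest value was above the lowest of AK148054 (1132 rpbp). Gas5, another such host, had 20.5 rpbp at the mean with F24 at 0.0440. Tug1 was listed as 2 symbols with means of 10.9 and 11.5 rpbp, whereas Gtl2 and H19 had means of 0.467 and 0.025 rpbp.

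Markers of liver cell types were compared because Neat1 and Malat1 are made in many of them. Of 8 hepatocyte markers, led by Alb and Cps1 (mean 247 rpbp), 7 were tested and 0 were called rhythmic, against 15.2% of all tested symbols. Their summed signal was 892 and 958 rpbp at ZT16 and 799 to 2097 rpbp in the other libraries. Of 10 Kupffer cell and leukocyte markers 6 were tested and 0 were called, again beside 15.2% of all tested symbols. Their sum was 40.6 and 52.9 rpbp at ZT16 and 26.3 to 83.1 rpbp elsewhere. Clec4f, a lectin of Kupffer cells and the highest of that list, had 19.2 ± 1.84 rpbp at ZT16 and 4.05 ± 3.46 rpbp at ZT8 (SD, n = 2), with F24 at 0.401 and the fitted maximum at 15.4 hr. Cd5l, a protein secreted by macrophages, had 7.15 ± 3.75 rpbp at ZT16 and 14.3 ± 13.6 rpbp at ZT8. For 8 endothelial markers, of which 3 were tested, it was 33.5 and 37.5 rpbp at ZT16 and 18 to 39.5 rpbp elsewhere. Of the 3 tested 1 was called, beside 15.2% of all tested symbols. This was Clec4g, a lectin of sinusoidal endothelial cells, with 7.75 ± 1.48 rpbp at ZT16, 3.95 ± 0.212 rpbp at ZT8 and the fitted maximum at 17.7 hr. The other tested ones were not called. Stab2 had 10.85 ± 0.636 rpbp at ZT16 and 9.45 ± 5.59 rpbp at ZT8, with the maximum at 21.5 hr. Eng had 7.95 ± 0.636 and 4.65 ± 2.33 rpbp, with the maximum at 17.9 hr. No stellate cell or bile duct marker reached the limit of 6 rpbp in any library. The sum of the stellate cell list (8 markers) was 15.7 and 19.5 rpbp at ZT16 and 12.9 to 17.8 rpbp elsewhere, and that of the bile duct list (6 markers) did not exceed 2.50 rpbp in any library. None of the markers in these lists was at 0 in every library. The part of cell makeup in the Neat1 values was not tested.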

How the data were processed

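Nascent RNA of 12 liver libraries was analysed, 2 per time point, grouped by the labels. The authors aligned reads to mm9 with TopHat (CASAVA 1.7 is also named in the submitters' processing notes), kept uniquely mapped reads, and deposited a signal per gene symbol, the coverage of its merged exons divided by exon length, without strand, scaled to 1 read number per library and rounded to 1 decimal. Read numbers are not part of the table. Totals per library are listed by the study but were not used here, so no intervals or limits from counts are given. Libraries of ZT8 and ZT20 had 2 lanes merged and the other 8 had 1. The signal summed to 118342 to 160545 rpbp per library, and in the GC content of highest against lowest bins replicate 2 of ZT8 stood apart (-1.20 on the log2 scale, -0.58 to 0.53 in the others). The authors also deposited, per symbol, a 24-hr variance fraction, its phase and a permutation p-value, which were not used.

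The 27919 blank lines of the table were dropped. F24 was computed on linear values, with a one-sided p from 100000 permutations per symbol (for a single series all 720 orders), for symbols above 6 rpbp in at least 1 library. The moderated F-test of limma 3.58.1 (R 4.3.3) over 6 time points used log2(rpbp + 1) with Benjamini-Hochberg adjustment over all tested symbols. Each fit was tested on simulated data. The symbol of longest span stands for a locus. Starts in the table were taken as counted from 0. GC content, known for 97.9% of tested symbols, was removed as the median log2 deviation in 20 bins.

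The window, the gene lists and the tests were chosen with earlier results of these data known. Symbols named are those of the window, the nearest tested neighbour on each side, for each locus the 5 tested symbols of most similar time course, and from each list the called symbols or, without any, the 2 of highest mean. One symbol that this rule selects is not reported here. Sfpq, Pspc1, Nono, Srrm2, Pop5, H19, Rmrp, Airn, Snhg1, Tug1, Stab2 and Eng were added for their roles or levels after their values were seen. Alternatives were other thresholds, log2 values, scalings, GC content, blocks for lane and replicate, calling rules, each library or series left out and, added after seeing the data, both ZT16 libraries left out.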

Additional observations from a re-analysis of the deposited data

How the results depend on the processing

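Malat1 was not called rhythmic under any of 27 alternatives (F24 0.00526 to 0.524), and leaving out 1 library gave 0.250 to 0.513. Neat1 was not called under 25 of 27. It was called with libraries rescaled by the median ratio (F24 0.473) and without replicate 1 of ZT12. Without 1 library its F24 ran from 0.321 to 0.569. The other thresholds, the adjusted p and the ratio of time-point means left its F24 at 0.438, under the limit. Those alternatives could not have given a call. The count of called members was then 1 after rescaling, 0 to 1 without 1 library and 0 under the other alternatives.

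Over all tested symbols the 955 rhythmic calls became 508 at 12 rpbp and 2224 with no threshold, where fewer or more symbols entered. They became 44 at an adjusted p under 0.05, and 260 and 171 in the series of replicate 1 and 2 alone, which hold 6 values. Without 1 library they were 803 to 1268.

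In the limma fit 1 member was called with log2(rpbp + 0.1) and 0 with no threshold, where 133 of 20756 symbols were called and the 3 Neat1 symbols were under an unadjusted p of 0.05. The cause of the first was not tested. Without 1 library 0 to 3 members and 170 to 638 symbols were called, against 3 and 481.

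Deviations of replicates with the same number were weakly correlated (15 pairs of time points, r from -0.12 to 0.32, median 0.073, 5 over 0.1). Such correlations cannot show whether or not the numbers pair the samples. With a replicate block F24 of Neat1 was 0.460 and that of Malat1 0.348, neither called, with 973 rhythmic symbols. The block left 2 members, AK215842 and AK197973, and 455 symbols called by limma. With 2 replicates per time point, the number of replicates limits the precision of each mean, and the ZT12 value of Neat1 rests on replicates 2.56-fold apart.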
